A study of Rattus norvegicus with 6 samples.

Results

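Haemoglobin genes were examined in the lateral ventricular choroid plexus of the rat, the secretory tissue of the brain ventricles that makes cerebrospinal fluid. The set holds 6 gene rows, *Hbe1*, *Hbz*, *Hbg1*, *Hba-a2*, *Hbb* and *Hbb-b1*, out of 29479 Ensembl gene identifiers counted. They were chosen by name from the table of genes that the authors had called different between the ages, so a difference in count between E15 and adult is what put them in the set and is described below without a test. Control Sprague-Dawley rats were used at embryonic day 15 (E15) and as adults of 6 weeks, with no treatment and no genetic change in either group. Each RNA sample was a pool of the left and right lateral ventricular plexuses of 10 animals, with 3 pools and so 3 libraries for each age. The dissected plexus was sequenced whole, with its vessels and any blood cells that stayed in them, and no step that removes blood cells is given in the labels.

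Haemoglobin is a tetramer of alpha-type and beta-type globin chains, each of which carries haem. The genes of each type lie side by side, and red cells use them in a developmental order known as globin switching. Primitive red cells, which arise in the yolk sac, make embryonic chains such as zeta (alpha-type) and epsilon (beta-type), whereas definitive red cells, which arise later from the foetal liver and then the bone marrow, make the adult alpha and beta chains. Red cell precursors and reticulocytes still hold globin mRNA, so circulating blood adds globin reads to RNA of any tissue with vessels.

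Of the 6 rows, *Hbz* (zeta) and *Hba-a2* (alpha) encode alpha-type chains, and *Hbe1* (epsilon 1), *Hbg1* (named gamma A in the file), *Hbb* (beta-1) and *Hbb-b1* (beta adult major chain) encode beta-type chains. *Hbz*, *Hbe1* and *Hbg1* are called embryonic-type below and the other rows adult-type. In the RefSeq annotation the beta-type genes lie on chromosome 1 on the minus strand in the transcribed order *Hbe1*, *Hbe2*, *Hbg1*, *Hbb* and *Hbb-b1*, with other beta-type copies around the last pair. The alpha-type genes lie on chromosome 10, also on the minus strand, in the order *Hbz*, *Hba-a1*, *Hba-a2* and *Hba-a3*. The identity of the *Hba-a2* row is uncertain. Its description covers alpha-1/2, *Hba-a2* is also an older name of the RefSeq gene *Hba-a1*, and a second row of the file, *Hba2*, carries the RefSeq protein accession of today's *Hba-a2*. Promoters of both genes are therefore shown.

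RefSeq promoter entries were found for 5 of the 6 symbols, with none in the table for *Hbg1*. The 120 bases before the annotated start are printed 5′ to 3′ for these and for *Hba-a1* (build GRCr8, minus strand). Capitals mark matches to letters of promoter elements known from globin genes, the CCAAT box (CCAAT, either strand), the CACCC box bound by Krüppel-like factors (CACCC, either strand), the core of a GATA factor site (GATAA, either strand) and TATA-type elements (ATAAA or TATAA, gene strand only, which overlap by 4 bases where both occur).
Hbz, chr10:15849758-15849877: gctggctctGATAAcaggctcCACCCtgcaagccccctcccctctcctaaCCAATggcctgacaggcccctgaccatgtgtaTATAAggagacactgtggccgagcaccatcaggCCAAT
Hba-a1, chr10:15842581-15842700: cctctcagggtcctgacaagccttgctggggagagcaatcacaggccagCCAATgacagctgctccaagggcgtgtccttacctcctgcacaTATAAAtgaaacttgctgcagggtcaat
Hba-a2, chr10:15829139-15829258: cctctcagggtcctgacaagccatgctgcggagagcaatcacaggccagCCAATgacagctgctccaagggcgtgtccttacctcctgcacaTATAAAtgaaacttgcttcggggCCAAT
Hbe1, chr1:167696281-167696400: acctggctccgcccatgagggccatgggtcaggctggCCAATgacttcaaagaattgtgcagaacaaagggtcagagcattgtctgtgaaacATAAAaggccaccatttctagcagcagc
Hbb, chr1:167663722-167663841: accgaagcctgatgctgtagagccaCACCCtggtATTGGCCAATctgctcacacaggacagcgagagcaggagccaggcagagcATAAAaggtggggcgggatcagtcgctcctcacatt
Hbb-b1, chr1:167643521-167643640: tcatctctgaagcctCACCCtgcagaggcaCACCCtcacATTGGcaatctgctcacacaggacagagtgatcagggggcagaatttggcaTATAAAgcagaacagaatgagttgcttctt

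A CCAAT match was present in all 6 windows, against 19.9% of the 33469 RefSeq promoter windows of this length. The match farthest from the start began 83 bases before it in *Hbe1*, 70 in *Hbz* and 71 in both alpha genes. *Hbz* and *Hba-a2*, but not *Hba-a1*, had a second match over the last 5 bases before the start. In *Hbb* the CCAAT match was doubled as a palindrome with matches on both strands. A TATA-type match was also present in all 6 windows, with ATAAA in 13.2% and TATAA in 8.83% of all windows. CACCC letters were found in *Hbz*, *Hbb* and *Hbb-b1* and occurred in 29.5% of all windows, while GATAA was found in *Hbz* alone of the 6 and in 11.2% of all windows. The windows of *Hba-a1* and *Hba-a2* differed at 5 of 120 bases (95.8% identity). Those of *Hbb* and *Hbb-b1* were 67.7% identical over their alignment, and *Hbe1* and *Hbb* 52.1%, close to the 51.4% between the alpha-type *Hbz* and the beta-type *Hbe1*. These matches are a description of letters in the reference, and binding was not measured.

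The deposited values were raw counts of reads that mapped to a single place. Library totals lay between 17875089 and 19204440 counts, so depth differed little between the ages. Counts were scaled here with TMM factors (trimmed mean of M values, a factor per library that balances the bulk of genes), which were 1.32 to 1.33 at E15 and 0.735 to 0.773 in the adult, and normalised counts below are given at the mean scaled library size of 19267327. The adult libraries hold more reads of a few very abundant genes such as *Ttr* (transthyretin, the main secreted protein of the plexus). With totals alone as the scale, the median log2 ratio of E15 to adult over the 16643 genes tested moved from 0.14 to 0.94. Reads shared by near-identical copies had been discarded by the authors, so the counts of alpha and adult beta rows are uncertain, and levels are not compared between genes because transcript lengths were not used. In these bulk samples fewer cells of a type and less RNA per cell cannot be told apart.

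All 6 rows had more normalised counts in every E15 pool than in any adult pool, and all 6 passed edgeR's quasi-likelihood test with higher values at E15. Over all genes tested, 38.0% had every E15 pool above every adult pool and 34.7% were called higher at E15. As the rows were selected on this contrast, nothing is read from these counts. The size of the difference split the set. The embryonic-type rows were about 708-fold to 1283-fold higher at E15, and the adult-type rows 4.08-fold to 14.6-fold.

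*Hbe1*, which encodes the epsilon chain of embryonic haemoglobin, had 226917, 332112 and 296494 counts in E15 pools 1, 2 and 3. These were 1.27%, 1.76% and 1.60% of all counts in those libraries. In the adult pools the row had 0, 229 and 415 counts. The mean normalised count was 224664 ± 35668 (SD, n = 3) at E15 and 289 ± 285 (n = 3) in the adult, with a ratio of 777. The E15 pools lay within 1.38-fold of one another, whereas the adult pools ran from 0 to 570 normalised counts, so the ratio moved between 506 without adult pool 1 and 1487 without adult pool 3.

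*Hbz*, which encodes the zeta chain that pairs with epsilon in primitive red cells, had 29442, 40457 and 29037 counts at E15, against 0, 32 and 50 in the adult pools. Normalised counts were 26008 ± 4507 (SD, n = 3) at E15 and 36.7 ± 34.6 (n = 3) in the adult, with a ratio of 708. The ratio ranged from 461 without adult pool 1 to 1232 without adult pool 3. Pool 2 was highest at E15 for *Hbz* and *Hbe1*, and pool 3 was highest in the adult for both.

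*Hbg1*, a further beta-type gene of the embryonic end of the cluster, had 12024, 13151 and 8061 counts at E15, against 1, 2 and 12 in the adult pools. Its normalised counts were 8763 ± 2119.5 (SD, n = 3) and 6.83 ± 8.38 (n = 3), a ratio of 1283. Most of the adult counts came from pool 3. With that pool left out, 3 adult counts remained, and the ratio of summed counts, each sum divided by its scaled library sizes, was 4229 with an exact 95% interval of 1447 to 20510 from counting error alone. E15 pool 3 was the lowest of its age for this row, unlike for *Hbe1*.

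*Hba-a2*, which encodes the alpha chain used by both foetal and adult red cells, had 45108, 78797 and 72216 counts at E15, against 2122, 3404 and 2309 in the adult. Normalised counts were 51411 ± 12712 (SD, n = 3) and 3532 ± 774 (n = 3), a ratio of 14.6 that stayed between 13.2 and 16.6 when any pool was left out. No adult pool was at or near 0. The lowest E15 pool was still 8.35 times the highest adult pool.

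*Hbb*, the beta-1 chain of adult haemoglobin, had 20701, 47272 and 50276 counts at E15, against 4278, 6320 and 4613 in the adult. Normalised counts were 30925 ± 12202 (SD, n = 3) and 6866 ± 1169 (n = 3), a ratio of 4.50 (3.88 to 5.51 with any pool left out). E15 pool 1 was 2.33-fold below pool 3, the widest spread among the 6 rows at E15, and stood 2.06-fold above the highest adult pool.

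*Hbb-b1*, the beta adult major chain, had 2294, 3959 and 4705 counts at E15, against 401, 614 and 543 in the adult. Its normalised counts were 2872 ± 919 (SD, n = 3) and 704 ± 120 (n = 3), a ratio of 4.08 (3.49 to 4.78 with any pool left out). As for *Hbb*, E15 pool 1 was lowest, pool 3 highest, and the groups did not overlap. With totals alone as the scale the log2 ratios of the adult-type rows were larger, 4.67 for *Hba-a2*, 2.98 for *Hbb* and 2.83 for *Hbb-b1*, against 3.86, 2.17 and 2.03 here.

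**Figure D1:**
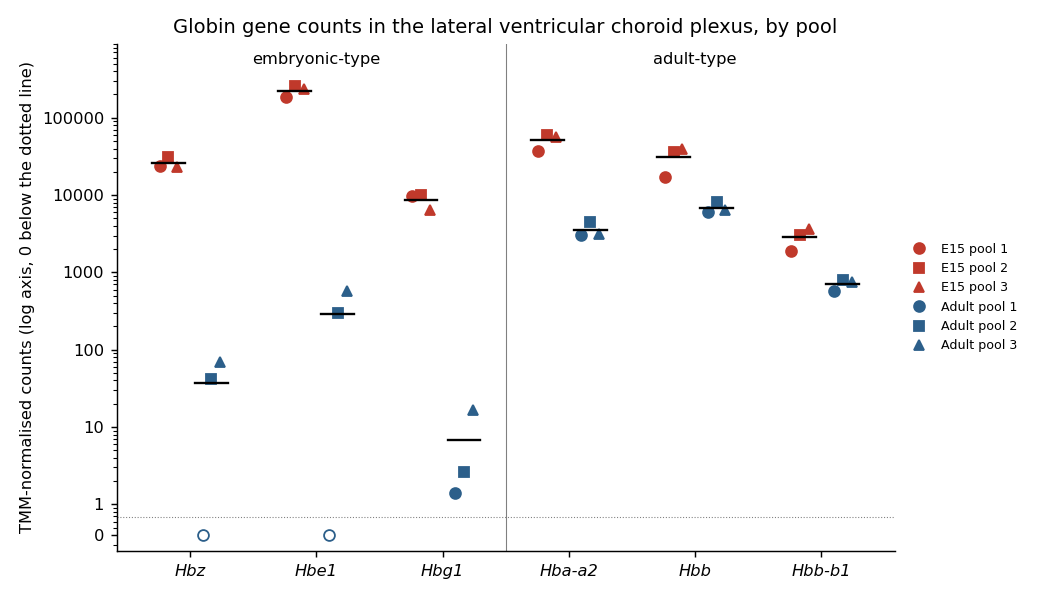
TMM-normalised counts on a log axis for the 6 globin rows, with 1 point per pool, a black line at the mean of 3 pools, and open symbols below the dotted line for pools with 0 counts. The embryonic-type rows lie at 6322 normalised counts or more at E15 and at 570 or fewer in the adult, whereas the adult-type rows keep 568 or more in every adult pool.

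The make-up of the globin counts within a library does not depend on scaling between libraries. Their share of all counts in a library, in contrast, is a value with totals alone as the scale. The 6 rows together took 1.88%, 2.73% and 2.49% of all counts in E15 pools 1, 2 and 3, and 0.0367%, 0.0552% and 0.0431% in the adult pools. Embryonic-type rows made up 75.6% ± 3.76 (SD, n = 3) of these counts at E15 and 2.83% ± 3.01 (n = 3) in the adult. Shares are of uniquely mapped reads, uncorrected for length or for reads lost between copies, and their exact binomial intervals cover counting error only.

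Among the alpha-type counts of *Hbz* and *Hba-a2* alone, *Hbz* took 39.5%, 33.9% and 28.7% in E15 pools 1, 2 and 3. The exact 95% interval of each share was narrower than 1 percentage point. In the adult pools it took 0 of 2122 counts, which allows a share of up to 0.141%, then 0.931% (0.638 to 1.31) and 2.12% (1.58 to 2.78). The pools of an age thus differed by more than counting error at both ages, and the adult mean of 1.02% was 0.466% without adult pool 3. With the further alpha rows *Hba2* and LOC287167 in the total, the mean share of *Hbz* fell from 34.0% to 23.9% at E15 and to 0.60% in the adult. Among the 4 beta-type rows, *Hbe1* and *Hbg1* together took 91.2%, 87.1% and 84.7% at E15, against 0.0214%, 3.22% and 7.65% in the adult, where the mean of 3.63% was 1.62% without adult pool 3. *Hbb* alone took 11.3% ± 3.09 (SD, n = 3) at E15 and 87.4% ± 4.45 (n = 3) in the adult.

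**Figure D2:**
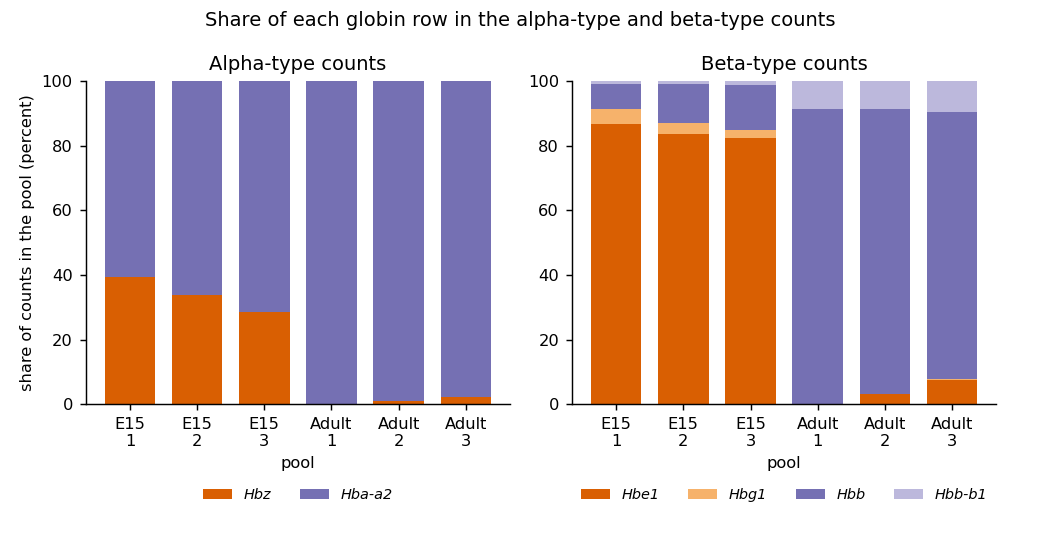
Stacked bars of the percent of alpha-type counts (left) and beta-type counts (right) taken by each globin row in each pool, from raw counts. At E15 *Hbz* takes 28.7% to 39.5% of alpha-type counts and *Hbe1* 82.5% to 86.6% of beta-type counts, while *Hba-a2* and *Hbb* take most of the counts in the adult pools.

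The E15 pools held the same order in both families. Pool 1 had the highest embryonic-type share and pool 3 the lowest, among alpha-type and among beta-type counts. The share of *Hbg1* within *Hbe1* and *Hbg1* followed that order too, at 5.03%, 3.81% and 2.65%. In the same pool 1 the summed normalised counts of 9 endothelial genes were lowest (9266 against 13582 and 11508 in pools 2 and 3). Those of 7 proliferation genes were highest (15611 against 12310 and 13182). Red cell genes went both ways. *Tfrc*, the transferrin receptor that loads iron into red cell precursors, had 1954 counts against 1113 and 994, and *Add2* was also highest in pool 1 (692 normalised counts against 610 and 627). *Slc4a1* (4793 against 6343 and 5672) and *Alas2* (831 against 1184 and 1165) were lowest there. The part of these differences between pools in the globin shares was not tested.

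The balance of adult-type chains also differed between the ages. *Hba-a2* had 2.18, 1.67 and 1.44 counts per *Hbb* count in the E15 pools, against 0.496, 0.539 and 0.501 in adult pools 1, 2 and 3, with no overlap. Over all 6 rows the alpha-type share went the other way. It was 22.4% ± 0.617 (SD, n = 3) of their counts at E15 and 31.1% ± 1.36 (n = 3) in the adult. Counts of some copies kept a narrower range of ratios. *Hba-a2* had 1.46 to 1.73 counts for each count of *Hba2* in all 6 libraries, and *Hbb* had 8.50 to 11.9 for each count of *Hbb-b1*. Against LOC689064, another adult beta row, *Hbb* had ratios of 4.93, 8.04 and 8.24 at E15, against 14.2, 12.0 and 11.3 in adult pools 1, 2 and 3. *Hbe1* had 7.71 to 10.2 counts per *Hbz* count at E15 and 7.16 and 8.30 in adult pools 2 and 3, the pools in which both were counted.

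Adult pool 1 stood apart from the others in *Hbe1* and *Hbz*, but not in *Hbg1*, which had 1, 2 and 12 counts in adult pools 1, 2 and 3. Of 1313 genes with a mean of more than 3000 counts at E15, 3 had 0 counts in adult pool 1 (*Hbe1*, *Hbz* and *Rspo3*) and none had 0 in adult pool 2 or 3. Of 4698 genes with a mean above 1000, 7 had 0 counts in adult pool 1, 4 in pool 2 and 3 in pool 3. In adult pools 2 and 3 the counts of *Hbe1* were 0.132% and 0.254% of the E15 mean, those of *Hbz* 0.160% and 0.264%, and those of *Hbg1* 0.0296% and 0.188%. Low adult counts with 0 in pool 1 were also seen outside the globins, in genes picked for their likeness to *Hbe1*. *Rspo3*, a secreted activator of Wnt signalling, had 3474, 3146 and 3207 counts at E15, against 0, 14 and 19 in the adult, *Sox11*, a transcription factor of neural progenitors, 0, 3 and 2 in the adult, and *Ccna2* (cyclin A2) 0, 7 and 8. Whether the embryonic-type counts of adult pools 2 and 3 came from the adult tissue was not tested.

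Those genes came from a search for the patterns nearest to *Hbe1*, the row with most normalised counts at E15, among 7503 named genes with a mean normalised count of at least 100 at either age. Likeness was the root mean square difference of centred log2 normalised counts over the 6 libraries. The nearest were *Hbz* (1.14), *Rspo3* (2.30), *Sox11* (2.59), *Ccna2* (2.65) and *Hbg1* (2.74). All were at 0 or 1 count in adult pool 1, which a search for likeness to *Hbe1* favours. For *Hbb*, the row with most normalised counts in the adult, the nearest were *Fbxw9* (0.117), *Znf580* (0.121), *Zfp319* (0.123) and the rows named D3ZGE9_RAT (0.148) and D4A168_RAT (0.153). All of these had their lowest E15 count in pool 1, and *Fbxw9*, for example, had 626, 1294 and 1226 counts there and 130, 163 and 132 in the adult. No globin was among the nearest to *Hbb*.

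A further 6 rows of the authors' table of called genes are described as globins. The alpha row *Hba2* had 29643, 45626 and 44683 counts at E15, against 1408, 2111 and 1579 in the adult, with a ratio of 13.7, close to the 14.6 of *Hba-a2*. The beta-2 row LOC689064 was 7.62-fold higher at E15 and LOC287167, described as an alpha globin, 7.09-fold. *Hbe2* (epsilon 2) had 49, 43 and 54 counts at E15 and 0 in each adult pool, so it was at least 28.3-fold higher against a floor of 3 counts over the 3 adult pools. These 4 were called higher at E15 (edgeR adjusted p from 2.09e-07 to 1.36e-04), as were 34.7% of all genes tested. The authors had already called all 6 rows between these ages, so the calls repeat that selection and nothing is read from them. The globins of other tissues went the other way. *Ngb* (neuroglobin) had 6, 14 and 5 counts at E15, against 11, 35 and 8 in the adult, and *Cygb* (cytoglobin, of fibroblast-like cells) 84, 124 and 132 against 102, 129 and 115, and both passed the test as higher in the adult (edgeR adjusted p = 0.038 and 0.0129), as did 29.3% of all genes tested. With totals alone as the scale neither passed, and *Cygb* was at -0.0062 on the log2 scale. *Ngb* lost its call under 6 alternatives in all, these being both scalings by totals, limma-voom, and leaving out adult pool 2, E15 pool 1 or E15 pool 3.

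The genes that serve haemoglobin and red cells were taken from lists, in which a gene can be named only if the authors had called it, so both the counts of calls and the sizes of difference below are raised by that selection. They are set beside 34.7% of all genes called higher at E15, and nothing about a list as a whole is read from them. Of 16 haem synthesis and carrier genes listed, 5 were matched. *Alas2*, the first enzyme of haem synthesis in red cells, had 1015, 1537 and 1486 counts at E15, against 39, 64 and 44 in the adult, and was higher at E15 (log2 difference 3.99 ± 0.22 SE, edgeR adjusted p = 3.39e-07). *Alad*, the next enzyme, which all cells use, was higher at E15 by 1.41 on the log2 scale. *Slc25a38* (a mitochondrial carrier needed for haem) was called higher in the adult, with a log2 value of -0.66, but with totals alone as the scale it lost the call and changed sign, at 0.15.

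Of 21 listed erythroid transcription factors and regulators of globin choice, 15 were matched, 14 were higher at E15 and 1 in the adult, with a median log2 difference of 3.41. The median was 0.73 over the 9958 tested rows with a name, which the authors had likewise called, and 0.14 over all genes tested. The 6 with most counts were *Kdm1* (histone demethylase LSD1, log2 difference 0.94), *Ldb1* (1.54) and *Lmo2* (1.03), which bridge enhancer complexes, *Klf3* (2.01-fold), *Tal1* (log2 difference 4.56) and *Zbtb7a*. *Zbtb7a*, a repressor of foetal globin genes in adult red cells, had 419, 638 and 495 counts at E15, against 766, 805 and 761 in the adult, and was higher in the adult (log2 difference -1.38 ± 0.15 SE, edgeR adjusted p = 3.07e-05). Further regulators were chosen after their values were seen. The red cell factors *Klf1* (144, 232 and 190 counts at E15, against 2, 9 and 2 in the adult, log2 difference 4.63) and *Nfe2* (188, 280 and 253 against 5, 3 and 7, 4.77) were higher at E15, and *Gata1*, the factor that defines the red cell line, had 83, 100 and 79 counts at E15 and 0 in every adult pool, at least 50.7-fold. The row D3ZSY3_RAT, matched by its accession to *Bcl11a*, another repressor of embryonic and foetal globin genes that neurons also express, had 517, 172 and 363 counts at E15, against 8, 4 and 3 in the adult.

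Of 29 listed genes of the red cell membrane, skeleton and metabolism, 17 were matched, 16 were higher at E15 and 1 in the adult. The median log2 difference was 4.86, or 4.67 with the 2 genes at 0 in every adult pool set at their lower bound. *Slc4a1* (band 3, the anion exchanger of the red cell membrane) had 5856, 8237 and 7233 counts at E15, against 41, 106 and 62 in the adult, a 59.8-fold difference (log2 5.89 ± 0.28, edgeR adjusted p = 1.44e-07). *Tmcc2*, *Tfrc* and *Gypc* (glycophorin C) were 6.53-fold, 3.08-fold and 1.63-fold higher at E15. *Tspan33*, a tetraspanin also found in epithelia, had 1008, 1354 and 1251 counts at E15, against 4894, 5190 and 5026 in the adult and was the member higher in the adult, 7.22-fold.

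Of 9 listed partners of globin and haem, 6 were matched, and 3 were higher at E15. *Eraf*, the chaperone of free alpha chains also called *Ahsp*, had 970, 1186 and 1006 counts at E15, against 7, 28 and 30 in the adult (28.5-fold). *Hmox1*, the inducible haem oxygenase, was 4.30-fold higher at E15 and *Hmox2*, its constitutive relative, 1.87-fold higher in the adult, a call that was lost with totals alone as the scale. *Hpx* (haemopexin, which binds free haem) passed on few counts, 19, 35 and 33 against 8, 5 and 3, and lost its call without any of E15 pools 2 and 3 or adult pools 2 and 3. *Hp* and *Lrp1* (the receptor of the haem-haemopexin complex) did not pass, with log2 values of 1.05 and -0.50. *Lrp1* was called higher in the adult under 8 alternatives, among them DESeq2, limma-voom, the exact test and the replicate block, and changed sign with totals alone as the scale, while *Hp* passed under 2, totals alone and the exact test.

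**Figure D3:**
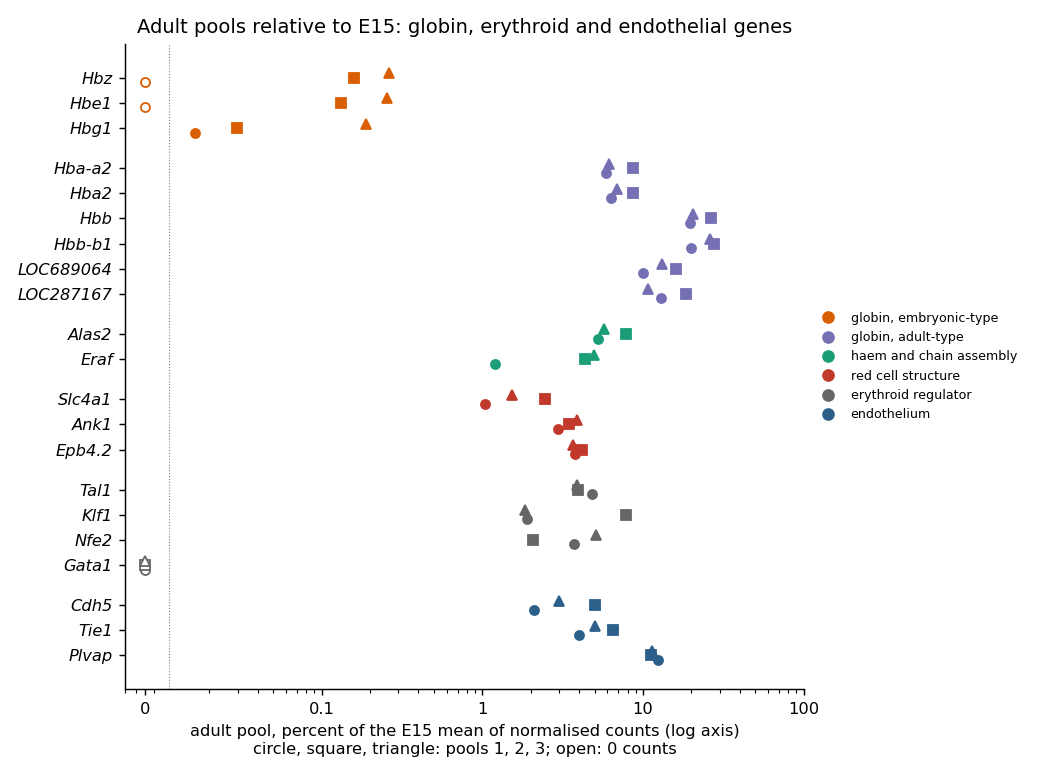
Normalised counts of each adult pool as a percent of the mean of the 3 E15 pools, on a log axis, for globin, haem, red cell, regulator and endothelial genes, with open symbols at the left for 0 counts. Embryonic-type rows lie at or below 0.264%, *Hba-a2*, *Hba2* and *Alas2* between 5.21% and 8.71%, *Hbb* and *Hbb-b1* between 19.6% and 27.8%, and *Slc4a1* between 1.04% and 2.46%.

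Set against red cell genes within a library, the ratio between the ages depended on the gene (pairs chosen with the values known). *Hba-a2* had 44.4, 51.3 and 48.6 counts for each count of *Alas2* in the E15 pools, against 54.4, 53.2 and 52.5 in adult pools 1, 2 and 3. Against *Slc4a1* the values were 7.70, 9.57 and 9.98 at E15, against 51.8, 32.1 and 37.2 in the adult, so the mean was 4.44 times as high in the adult. For *Hbb* against *Slc4a1* the mean was 14.7 times as high in the adult. *Hbe1* had 38.7, 40.3 and 41.0 counts per *Slc4a1* count at E15, the narrowest spread of these ratios at E15, and 0, 2.16 and 6.69 in the adult.

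**Figure D4:**
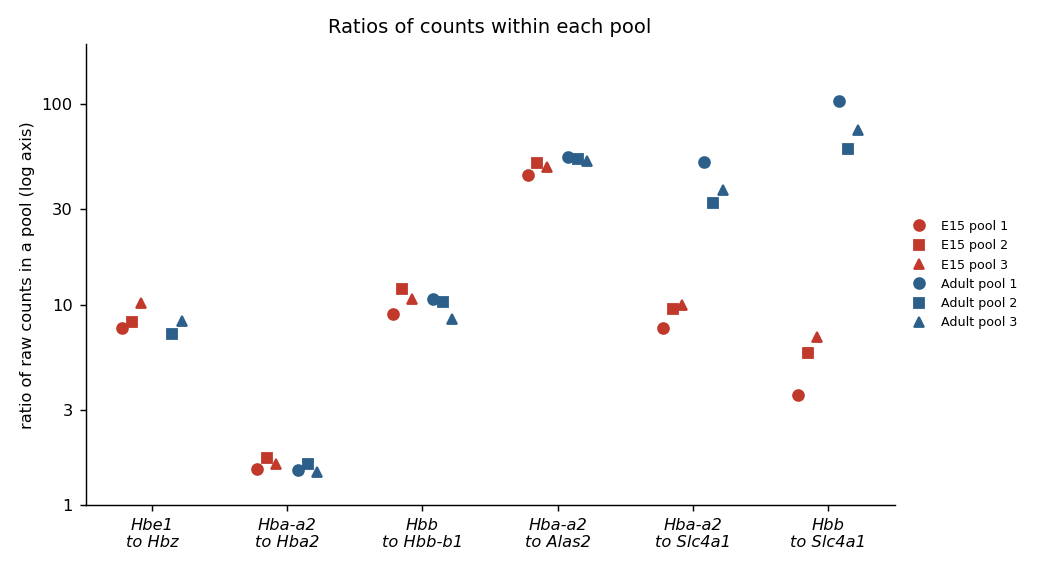
Ratios of raw counts of gene pairs within each pool, on a log axis, with 1 point per pool (adult pool 1 has no *Hbe1* to *Hbz* point, as both were 0). *Hba-a2* to *Alas2* lies between 44.4 and 54.4 at both ages, while *Hba-a2* to *Slc4a1* runs from 7.70 to 9.98 at E15 and from 32.1 to 51.8 in the adult.

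Markers of the other cells in the tissue moved with age as well. These lists too could match only genes that the authors had called, which raises the counts of calls below. Over all genes tested, 34.7% were called higher at E15 and 29.3% in the adult. All 9 matched genes of the plexus epithelium were higher in the adult, with sums of 432822 to 530486 normalised counts at E15 and 4060835 to 4985512 in the adult. *Ttr* made up most of these sums at both ages. All 9 endothelial genes were higher at E15 (9266 to 13582 against 1041 to 1467), as were all 7 proliferation genes (12310 to 15611 against 224 to 264). Of platelet and megakaryocyte genes 6 of 7 were higher at E15 (381 to 498 against 67.3 to 162), with *Ppbp* at 0 in every adult pool. Of the rows of blood progenitor genes 6 of 7 were higher at E15 (5594 to 5935 against 1810 to 2421). The exception, *Flt3*, had means of 7.50 normalised counts at E15 and 1298 in the adult, and made up most of the adult sum. Of 8 white cell and macrophage genes 3 were higher at E15, 3 in the adult and 2 did not pass. Only 1 was called at E15 without E15 pool 2, E15 pool 3 or adult pool 1, and 5 were called in the adult by the exact test. Their sum was 1405 to 1827 at E15 and 2223 to 3072 in the adult, but without *Lyz2* (lysozyme of macrophages) it was 1374 to 1786, against 905 to 1216. Adult pool 2, which was highest of its age for *Hba-a2*, *Hbb* and *Hbb-b1*, was also highest for the endothelial sum, with 88 counts of *Cdh5* (VE-cadherin) against 34 and 50. The part of vessel content in the globin counts was not tested.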

How the data were processed

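RNA of whole lateral ventricular choroid plexus was sequenced from 3 pools of 10 Sprague-Dawley rats at E15 and 3 at 6 weeks, with 1 library per pool, and samples were grouped by the age in their labels. The deposited values are raw counts for each gene. To make them, the authors trimmed the reads, aligned them by Bowtie 0.12.7 against release 61 of Ensembl's rat genome, dropped reads without a single place and counted the others with HTSeq 0.4.7p4 in union mode. A second table holds the fold changes and p-values of the authors' comparison (edgeR 2.4.0), and only its gene names and gene descriptions were used.

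The ages were compared with edgeR 4.0.16 (glmQLFit and glmQLFTest, R 4.3.3), TMM factors, age as the only term, the 16643 genes with more than 10 counts in all, Benjamini-Hochberg adjustment and a threshold of 0.05. All p-values in the text come from this fit. It was tested on simulated data first. Other scalings, filters and tests (DESeq2 1.42.0, limma-voom with limma 3.58.1, edgeR's exact test), a replicate block and leaving out each library were run as alternatives. The p-values measure the spread between pools. Intervals are exact binomial ones at 95%, with a floor of 3 counts where a group had 0. They cover counting error only.

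The members and gene lists were chosen with earlier results of these data known. Every named gene comes from the 10653 rows the authors had called. Text names follow a rule: all member and globin-described rows, in each red cell list up to 6 genes of highest mean normalised count, and the 5 genes nearest to *Hbe1* and to *Hbb*. Marker lists for plexus epithelium, endothelium, platelets, white cells, blood progenitors and dividing cells are given as sums. The results of some other listed genes are left out of the text. Promoters are from RefSeq (GRCr8). Figures were made with matplotlib 3.10.9.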

Additional observations from a re-analysis of the deposited data

How the results depend on the processing

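With totals alone as the scale, 9799 genes in place of 5773 were called higher at E15 and 2292 in place of 4879 in the adult, and without the 10 most abundant genes in the totals 3196 were called in the adult. With totals alone the log2 ratios of all 6 globin rows rose, by the construction of that scale. With 0.5 added to each mean normalised count they were 10.39 for *Hbe1*, 10.23 for *Hbz* and 10.98 for *Hbg1*. They were 4.67 for *Hba-a2*, 2.98 for *Hbb* and 2.83 for *Hbb-b1*. Adding the other haemoglobin rows lowered the embryonic-type share of alpha-type counts at E15 from 34.0% to 23.9% and raised the globin share of adult library counts to 0.0571%. Without 1 library, 5009 to 6218 genes were called at E15 and 4327 to 5449 in the adult, log2 ratios with 0.5 added to each mean normalised count were 8.98 to 10.53 (*Hbe1*), 8.84 to 10.24 (*Hbz*), 9.74 to 11.77 (*Hbg1*), 3.73 to 4.05 (*Hba-a2*), 1.95 to 2.46 (*Hbb*) and 1.80 to 2.26 (*Hbb-b1*), and embryonic-type shares were 31.3% to 36.7% (alpha-type) and 85.9% to 89.2% (beta-type) at E15 and 0.466% to 1.53% and 1.62% to 5.44% in the adult. The highest ratios of *Hbe1*, *Hbz* and *Hbg1* and the lowest embryonic-type shares in the adult were those without adult pool 3. In these fits 14 regulators, 3 haem synthesis genes, 15 to 16 red cell genes and 2 to 3 partners were called at E15. With the replicate number as a replicate block, 5320 and 4608 genes were called, 15 red cell genes and 2 partners at E15, with *Car1* and *Hpx* the calls lost and *Lrp1* gained as higher in the adult. Samples of the same number did not deviate together (r of -0.0072, -0.011 and -0.038). No alternative reversed a ratio of the 6 globin rows. Counts near 0 in the adult limit the ratios of the embryonic-type rows.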
